A study of Mus musculus with 6 samples.

Results

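The 34 genes described here mark microglia, the resident macrophages of the brain, and the activated phagocytes that microglia become around damaged myelin. They were taken by gene symbol from a table of 39017 mouse genes, and all 34 were found and passed the filter on low counts, among 16569 genes that did. The 18 genes from Cx3cr1 to Siglech are general or homeostatic markers, and the 16 from Cst7 on are known from activated phagocytes. The libraries hold RNA pulled down with HA-tagged ribosomes from the corpus callosum, the white matter tract between the hemispheres. All 6 come from C57BL/6 mice that carry RiboTag and Olig1-Cre, so that the tagged ribosomal protein RPL22 is switched on wherever the Olig1 promoter has driven Cre. The 3 control libraries (replicates 24, 26 and 27, titled Vehicle) came from mice labelled as control. The protocol shared by all samples lists a control diet with 18% protein. The 3 cuprizone libraries (replicates 30, 31 and 32, titled Cuz) came from mice given food with 0.2% cuprizone, a copper chelator that kills oligodendrocytes and demyelinates the tract. The shared protocol is for females aged 8 to 10 weeks, fed for 6 or 9 weeks and then allowed 3 weeks to recover, and the sources used here do not tell which of these times the cuprizone libraries stand for. The labels do not say that each library is a separate mouse, so p-values measure the spread between these libraries.

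Microglia arise from yolk sac progenitors and not from the Olig1 lineage, and the labels name oligodendrocytes as the cell type. RNA of other cells that stays with the beads would appear in such a pull-down, and no library of the unselected tissue was analysed here, so enrichment or depletion of these genes could not be computed. As background, resting microglia survey tissue with receptors such as P2RY12 and CX3CR1 and depend on signals through CSF1R. When myelin breaks down, TREM2 senses lipids of the debris and signals through its adaptor TYROBP, and the cells take up myelin, raise lysosomal proteases and lower part of their resting program. Fewer cells of a type and less RNA per cell cannot be told apart in such bulk samples.

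Total counts ran from 18549360 to 22381307 per library. Oligodendrocyte transcripts were present in the pull-down. Mbp, which encodes myelin basic protein, was at 34363 ± 9088 CPM (the count per scaled library size, mean ± SD, n = 3) in control. Mbp fell to 5574 ± 2329 CPM in cuprizone, a log2 fold change of -2.62 that passed edgeR's test (adjusted p = 0.0104). Its adjusted p was 0.0558 without cuprizone replicate 30, the highest over all alternatives. Olig1 itself was at 1438 ± 184 CPM and 661 ± 167 CPM for control and then cuprizone, and Rpl22 at 70.4 ± 7.14 CPM and 76.4 ± 9.97 CPM. Astrocyte transcripts were abundant as well. For controls the mean sum of 12 astrocyte genes was 27297 CPM, below the 82361 CPM of 22 myelin genes. For cuprizone the astrocyte sum averaged 27637 CPM, above the myelin sum of 12577 CPM, and it was the larger in each cuprizone library. How selective the pull-down was for oligodendrocytes was not tested. Cuprizone replicate 32 stood apart in marker genes of other cells. Its 10 neuron genes summed to 3769 CPM, against 1657 to 2775 CPM in the other libraries, its 12 endothelial and pericyte genes to 245 CPM against 60.7 to 109.7 CPM, and its 5 red cell genes to 117 CPM against 1.70 to 33.1 CPM. Its 12 astrocyte genes summed to 18563 CPM against 25781 to 35191 CPM. The part of these differences in the results below was not tested, and values without that library are given beside the members whose fold change it moved most.

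The microglia genes were present in every library. Of the 18 general or homeostatic genes 16 had a higher mean in cuprizone by the fitted fold change, and none passed the test in either direction (Benjamini-Hochberg adjusted p under 0.05). Of the 16 activated genes 15 had a fold change above 0 and 1 passed, Lgals3bp. Among all genes tested, 1.87% were called higher and 5.7% lower, or 7.57% in either direction, and 52.6% had a fold change above 0. The median log2 fold change was 0.81 for the homeostatic genes and 1.26 for the activated ones, against 0.02 over all genes tested. The homeostatic and activated medians were 0.33 and 0.60 without cuprizone replicate 32, and 1.26 and 1.75 without control replicate 24. At an unadjusted p under 0.05 there were 4 of 18 homeostatic and 9 of 16 activated genes, beside 23.3% of all genes. DESeq2 called 2 homeostatic genes (Cd68 and Ptprc) and 7 activated ones higher (Gpnmb, Clec7a, Ctsb, Lgals3, Lgals3bp, Igf1 and Mmp12), where it called 5.2% of all genes higher and 13.7% in either direction. limma-voom called Gpnmb and Lgals3bp, with 1.77% of all genes called higher and 7.63% called in either direction.

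**Figure D1:**
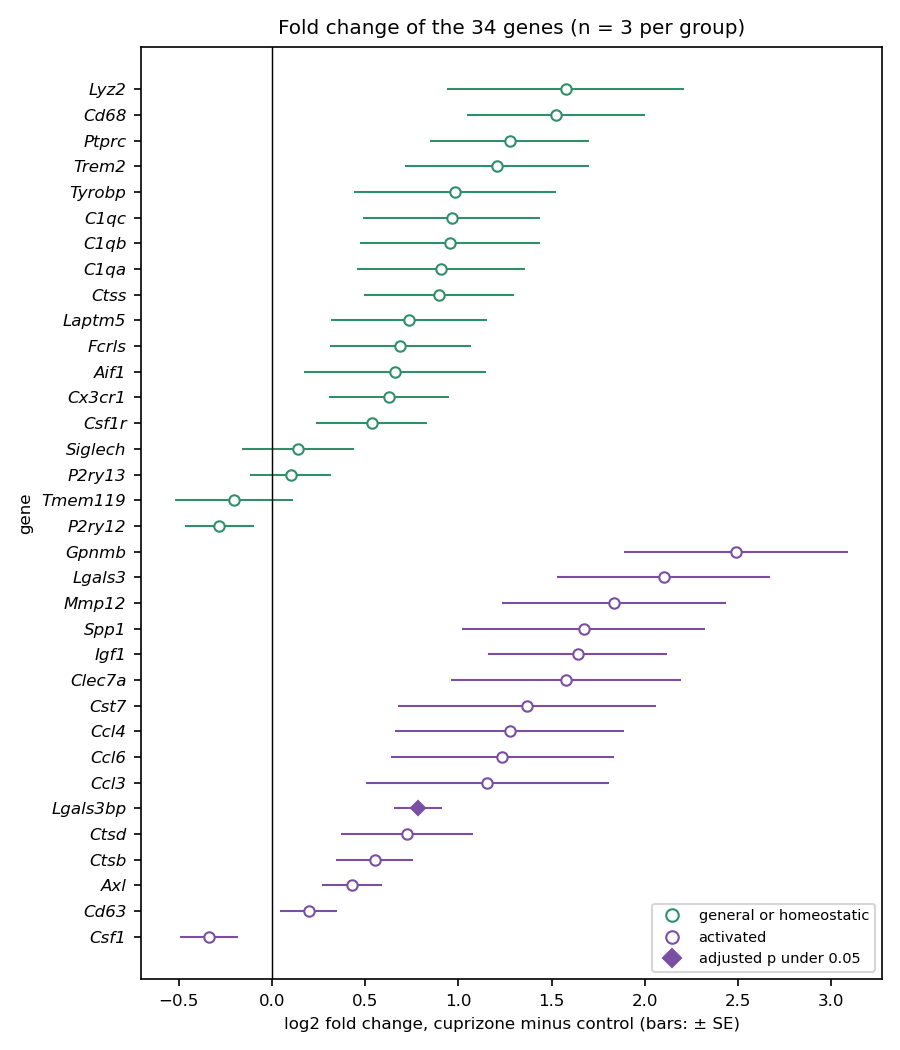
Log2 fold change, cuprizone minus control, of the 34 genes (x axis) with its standard error as a bar, n = 3 per group, general or homeostatic genes in green and activated genes in purple. The filled diamond is Lgals3bp (0.78 ± 0.13), which passed the test, and open circles did not, with Gpnmb at 2.49 ± 0.60 and P2ry12 at -0.28 ± 0.19.

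The spread within each group was wide and shared across the list. Control replicate 24 was the highest control library for 17 of the 18 homeostatic genes, and cuprizone replicate 32 was the highest and replicate 30 the lowest cuprizone library for 18 of 18. Control replicate 24 lay above cuprizone replicate 30 for 16 of the 18. Summed over the 18 genes, the controls were at 3515 CPM (replicate 24), 1877 CPM (26) and 1670.0 CPM (27), and the cuprizone libraries at 2608 CPM (30), 3548 CPM (31) and 6662 CPM (32). The groups therefore overlapped through a high control and a low cuprizone library. For the activated genes the lowest control was replicate 27 in 16 of 16, and control replicate 24 was the highest control in 14 of 16. Control replicate 24 exceeded cuprizone replicate 30 for 10 of these 16. Within controls the highest library exceeded the lowest by a median of 2.22-fold over the homeostatic genes and 2.94-fold over the activated ones, and within cuprizone by 2.61-fold and 2.93-fold.

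**Figure D2:**
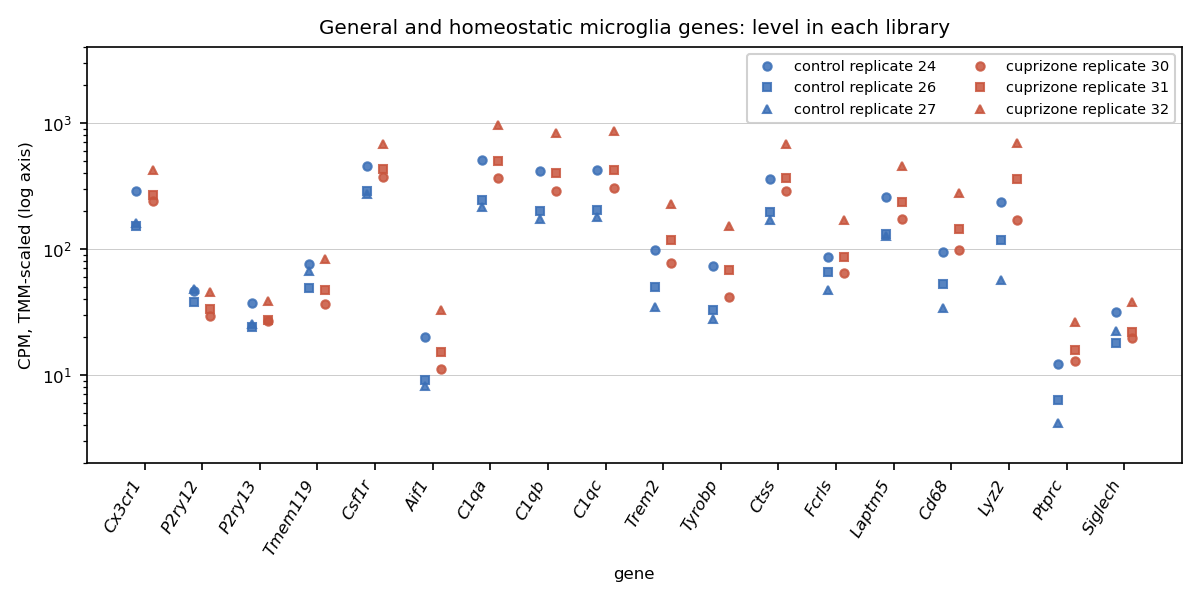
Level of the 18 general or homeostatic genes in each of the 6 libraries, in TMM-scaled CPM on a log axis, with controls in blue and cuprizone in red and 1 marker shape per replicate. Cuprizone replicate 32 is the top red point for every gene, and control replicate 24 is the top blue point for 17 of 18.

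To compare genes with each other, counts were divided by exonic length and scaled to a common total (TPM). On that scale Ctsd was the most abundant of the 34 in control, at 1971 ± 498 TPM (SD, n = 3), followed by C1qa at 1020 ± 480.0 TPM, C1qb at 795 ± 389 TPM and Ctsb at 600.0 ± 92.1 TPM. Csf1r was at 194 ± 53.4 TPM, Cx3cr1 at 146 ± 52.8 TPM and P2ry12 at 57.1 ± 5.01 TPM. Ctsb, Ctss (582 ± 232 TPM) and C1qc (460 ± 220 TPM) are neighbours in this order, and their means did not differ beyond the spread between libraries. Within each library Ctss was above C1qc, while the place of Ctsb varied. Mmp12, Igf1 and Ptprc were the lowest, at 1.81, 1.74 and 1.36 TPM. Length was the union of all annotated exons, which lowers the value of genes with long rare exons such as Ptprc. Ctsd, Ctsb, Spp1, Axl, Lgals3bp, Igf1, Csf1 and Cd63 are also made by other brain cells, so their levels are not levels of phagocytes alone.

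The complement component C1q, which tags debris and synapses for removal, is built from the products of C1qa, C1qb and C1qc, neighbours on chromosome 4 (GRCm38, 136880129 to 136898803). C1qa was at 506, 246 and 216 CPM in control replicates 24, 26 and 27 and at 366, 495 and 957 CPM in cuprizone replicates 30, 31 and 32. Control replicate 24 was above cuprizone replicates 30 and 31, and the log2 fold change of 0.91 ± 0.45 (SE) did not pass (adjusted p = 0.28 by edgeR). Without cuprizone replicate 32 the log2 fold changes of C1qa, C1qb and C1qc were 0.41, 0.39 and 0.42. C1qb (log2 fold change 0.95, adjusted p = 0.286) and C1qc (0.96, adjusted p = 0.275) were much alike. The chains kept near-constant proportions while C1qa ranged from 216 to 957 CPM: C1qb was at 78.9% to 87.5% of the C1qa count and C1qc at 82.5% to 89.8% in the 6 libraries. Their groups overlapped on this ratio.

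Of the 18 homeostatic genes P2ry12 and Tmem119 had a fold change below 0, and P2ry13 and Siglech had the smallest ones above it; these 4 were picked for description after their values were seen. P2ry12, the ADP receptor that guides microglial processes to injury (chromosome 3, 59216272 to 59262871 in GRCm38), was at 46.4, 38.1 and 47.6 CPM in control and 29.5, 33.5 and 45.7 CPM in cuprizone, so that only cuprizone replicate 32 reached the range of the controls. Its log2 fold change was -0.28 ± 0.19 (adjusted p = 0.40), and -0.48 without cuprizone replicate 32 (adjusted p = 0.0887). Tmem119, a surface protein of resting microglia, was at 76.2, 48.9 and 67.0 CPM in control and 36.2, 46.9 and 83.7 CPM in cuprizone, with overlapping groups and a log2 fold change of -0.20 (adjusted p = 0.75), or -0.62 without cuprizone replicate 32 (adjusted p = 0.139). P2ry13, a sister receptor of P2ry12 next to it on the chromosome, and the lectin Siglech had log2 fold changes of 0.10 and 0.14 (adjusted p = 0.82 for each). The sign of these small values turned in some fits: P2ry13 had -0.085 and Siglech -0.20 without cuprizone replicate 32, P2ry13 -0.0098 and Siglech -0.031 without control replicate 26, and Tmem119 0.027 without cuprizone replicate 30.

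Cx3cr1, the receptor for neuronal fractalkine, and Csf1r, the receptor that keeps microglia alive, were higher on average in cuprizone without passing the test. Without cuprizone replicate 32 their log2 fold changes were 0.34 and 0.24. Cx3cr1 was at 289, 151 and 159 CPM in control and 238, 268 and 421 CPM in cuprizone (log2 fold change 0.63 ± 0.32, adjusted p = 0.29). Csf1r was at 455, 289 and 273 CPM in control and 369, 429.7 and 675 CPM in cuprizone (0.53 ± 0.30, adjusted p = 0.33). In both genes control replicate 24 lay inside the cuprizone range. Csf1r shares 873 exonic bases with Hmgxb3 on the opposite strand, a gene at 41.2 to 49.4 CPM in these libraries. The cytoskeletal marker Aif1, also known as IBA1, the Fc receptor-like gene Fcrls and the lysosomal protein Laptm5 had log2 fold changes of 0.66, 0.69 and 0.74 with overlapping groups. Cuprizone replicate 32 carried most of these values, since without it they were 0.075, 0.19 and 0.25.

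The sensing pair TREM2 and TYROBP had higher means in cuprizone with a large spread. Trem2 (chromosome 17, 48346401 to 48354147) was at 98.3, 49.4 and 34.6 CPM in control and 77.1, 118 and 226 CPM in cuprizone, a log2 fold change of 1.21 ± 0.49 (adjusted p = 0.199). Tyrobp was at 72.9, 32.7 and 27.5 CPM in control and 41.7, 68.5 and 153 CPM in cuprizone, with 0.98 ± 0.54 (adjusted p = 0.325). In each gene 1 cuprizone library, replicate 30, lay below control replicate 24, and for Tyrobp replicate 31 did too. Without cuprizone replicate 32 the log2 fold change of Trem2 was 0.68 and that of Tyrobp 0.31 (adjusted p = 0.394 and 0.719).

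Of the homeostatic list, 2 of 18 genes had groups that did not overlap, Cd68 and Ptprc, both higher in cuprizone. Among all genes tested 12.6% had higher and 17.6% lower groups without overlap, or 30.2% in either direction. The count of 2 is near the share of all genes with higher groups, so it is not a result about the list as a group. Cd68, a lysosomal glycoprotein of macrophages (chromosome 11, 69664213 to 69666153), was at 93.8, 52.3 and 33.8 CPM in control and 98.6, 144 and 275 CPM in cuprizone. Its highest control stood just under its lowest cuprizone library, and the log2 fold change of 1.52 ± 0.48 had an adjusted p of 0.111 with edgeR. Ptprc, which encodes the leukocyte phosphatase CD45, was at 12.2, 6.29 and 4.14 CPM in control and 12.9, 15.8 and 26.04 CPM in cuprizone (1.27 ± 0.43, adjusted p = 0.13). Lyz2, the lysozyme of macrophages, was the homeostatic gene with the largest difference, 1.58 ± 0.64 on the log2 scale, with 234, 117 and 56.3 CPM in control and 168, 355 and 691 CPM in cuprizone, so its groups overlapped (adjusted p = 0.195). Without cuprizone replicate 32 the log2 fold changes were 1.02 for Cd68, 0.93 for Ptprc and 0.95 for Lyz2. The protease Ctss had 0.89 ± 0.40 (adjusted p = 0.24), and 0.45 when cuprizone replicate 32 was removed.

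Lgals3bp was the gene that passed. It encodes a secreted glycoprotein that binds galectins (ENSMUSG00000033880, chromosome 11, 118392751 to 118402092 in GRCm38, minus strand). It was at 92.3, 93.5 and 75.3 CPM in control and 139, 156 and 154 CPM in cuprizone, with a tight spread and no overlap. The log2 fold change was 0.78 ± 0.13, a 1.72-fold higher level (adjusted p = 0.0135 by edgeR), higher in 3 of 3 cuprizone libraries than in any control. The adjusted p became 0.057 when control replicate 26 was removed and 0.0695 when 27 was, and it ran from 2.84e-06 to 0.0695 over all alternatives. Unlike for the homeostatic genes, replicate 32 was not the highest cuprizone library for Lgals3bp. The summed homeostatic genes were at 6662 CPM in that library. Among the activated genes the same held for Axl, Csf1 and Cd63.

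Gpnmb, a glycoprotein of lipid-laden phagocytes (chromosome 6, 49036546 to 49070929), had the largest fold change of the 34. Control libraries held 45.4, 37.4 and 7.28 CPM and cuprizone libraries 131, 149.5 and 225 CPM. Control replicate 27 was far below the other controls, and each cuprizone library lay above each control. The log2 fold change of 2.49 ± 0.60 missed the threshold with edgeR (adjusted p = 0.0538) and passed without control replicate 27 (2.02, adjusted p = 0.0217), with DESeq2 (adjusted p = 1.03e-04) and with limma-voom (adjusted p = 0.0483). Over all alternatives its adjusted p ran from 1.03e-04 to 0.141. Lgals3, the galectin that binds damaged lysosomes, was at 35.3, 16.1 and 9.20 CPM in control and 47.1, 71.0 and 142 CPM in cuprizone, again with no overlap (2.10 ± 0.57, adjusted p = 0.0767). Igf1, a growth factor that activated microglia release, was at 7.31, 5.72 and 2.62 CPM in control and 8.88, 14.3 and 25.6 CPM in cuprizone, with no overlap (1.64 ± 0.48, adjusted p = 0.0935). Without cuprizone replicate 32 the log2 fold changes of Gpnmb, Lgals3 and Igf1 were 2.22, 1.55 and 1.15, and that of Lgals3bp was 0.76. In all, 6 of the 16 activated genes had higher groups without overlap, beside 12.6% of all genes: Gpnmb, Lgals3, Igf1, Lgals3bp, Axl and Ctsb. Of these, Igf1, Lgals3bp, Axl and Ctsb are among the 8 activated genes also made by other brain cells, so the count is not one of phagocytes alone.

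**Figure D3:**
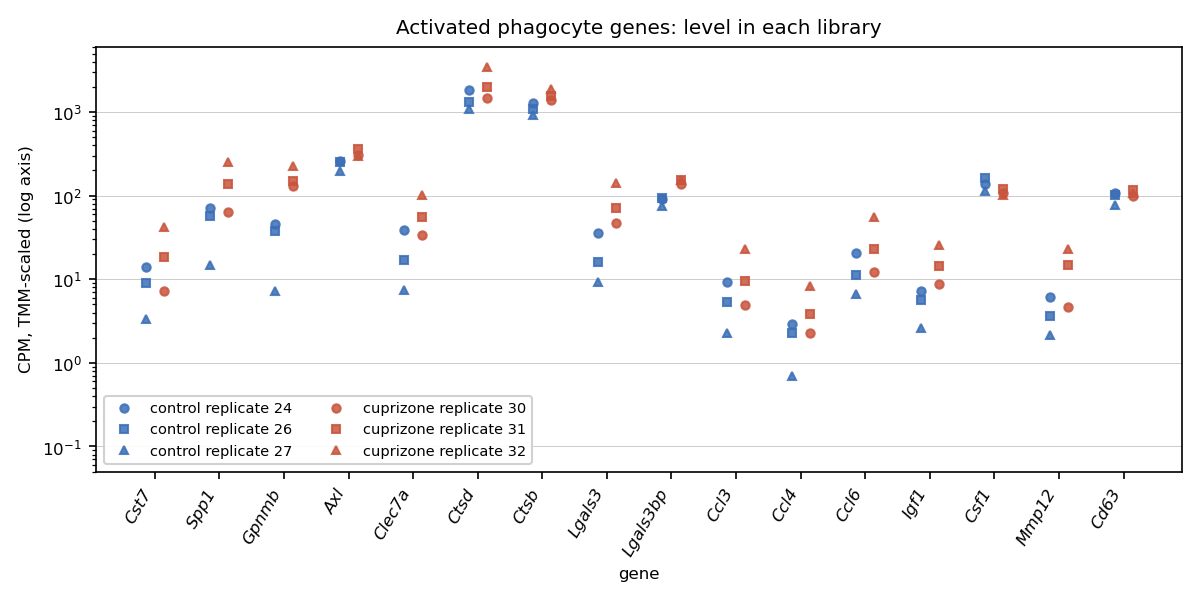
Level of the 16 activated phagocyte genes in each of the 6 libraries, in TMM-scaled CPM on a log axis, with controls in blue and cuprizone in red and 1 marker shape per replicate. Red and blue points separate for Gpnmb, Lgals3, Igf1, Lgals3bp, Axl and Ctsb, and control replicate 27 is the lowest control for all 16 genes.

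The other secreted and surface genes of activation overlapped between the groups. Spp1, which encodes osteopontin, was at 71.3, 56.4 and 15.0 CPM in control and 63.9, 138 and 252 CPM in cuprizone (1.67 ± 0.65, adjusted p = 0.18). Clec7a, the receptor dectin-1, was at 39.0, 17.2 and 7.46 CPM in control and 33.9, 54.9 and 101 CPM in cuprizone (1.58 ± 0.62, adjusted p = 0.18). Mmp12, the elastase of macrophages, was at 6.07, 3.68 and 2.16 CPM in control and 4.69, 14.9 and 22.9 CPM in cuprizone (1.84 ± 0.60, adjusted p = 0.12). In each of these genes cuprizone replicate 30 lay below control replicate 24, and without cuprizone replicate 32 Spp1 had 1.09, Clec7a 1.07 and Mmp12 1.31. The adjusted p of Mmp12 was 0.0481 without cuprizone replicate 30, and from 0.0129 to 0.324 over all alternatives. Cst7, an inhibitor of lysosomal cathepsins, had 1.37 ± 0.69 and the chemokine genes Ccl3, Ccl4 and Ccl6 had 1.16, 1.28 and 1.24, all with overlapping groups and adjusted p from 0.267 to 0.335. Without cuprizone replicate 32 these 4 values were 0.56 for Cst7, 0.36 for Ccl3, 0.63 for Ccl4 and 0.46 for Ccl6.

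The lysosomal proteases of the list were abundant in all libraries, the endosomal tetraspanin Cd63 less so, and none passed the test. Ctsd was at 1816, 1313 and 1081 CPM in control and 1483, 2019 and 3450 CPM in cuprizone (log2 fold change 0.72 ± 0.36, adjusted p = 0.28, and 0.32 when cuprizone replicate 32 was removed), with overlapping groups. Ctsb was at 1272, 1096 and 925 CPM in control and 1412, 1536 and 1873 CPM in cuprizone (0.55 ± 0.21, adjusted p = 0.165), with no overlap. Ctsb shares 774 exonic bases with Fdft1, an enzyme of sterol synthesis on the opposite strand that was at 114 to 133 CPM in control and 64.7 to 75.0 CPM in cuprizone. Ctsd and Spp1 share 808 and 309 exonic bases with the gene models Gm49369 and Gm42793 on their own strand, so their counts are uncertain to that extent. Cd63 had a log2 fold change of 0.20 (adjusted p = 0.49). Axl, a receptor for cell remnants, was at 262, 256 and 199.7 CPM in control and 309, 358 and 298 CPM in cuprizone (0.43 ± 0.16, adjusted p = 0.167).

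Csf1, a ligand of CSF1R, was the activated gene with a fold change below 0. Its level was 138, 163 and 115 CPM in control and 109, 119 and 101 CPM in cuprizone (-0.34 ± 0.16, adjusted p = 0.25), with control replicate 27 inside the cuprizone range. Il34, the other ligand of the receptor, was at 9.49, 14.5 and 13.4 CPM in control and 17.7, 14.7 and 25.7 CPM in cuprizone, with no overlap and a log2 fold change of 0.64 ± 0.25 (adjusted p = 0.18). Cx3cl1, the neuronal ligand of CX3CR1, had 0.74 ± 0.35 (adjusted p = 0.27), and its highest value, 838 CPM, was in cuprizone replicate 32, which also had the highest summed neuron genes.

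Since the summed homeostatic genes ranged from 1670.0 to 6662 CPM, each gene was also set against Csf1r within the same library. This comparison was chosen after the values had been seen, and Csf1r was taken as a gene that all microglia need. The ratio shows unequal change between a gene and Csf1r, and its size does not compare the genes' abundance, since lengths differ. P2ry12 was at 10.2%, 13.2% and 17.5% of the Csf1r count in control and 8.00%, 7.79% and 6.76% in cuprizone. Tmem119 was at 16.7%, 16.9% and 24.6% in control and 9.83%, 10.9% and 12.4% in cuprizone. On this ratio every cuprizone library lay under every control for both genes, and the same held for P2ry13 (8.12% to 9.21% against 5.66% to 7.25%) and Siglech (6.17% to 8.22% against 5.11% to 5.55%). Among all genes 20.6% had lower ratios without overlap and 1.93% higher ones. With 3 libraries against 3, an exact 2-sided permutation test of a ratio cannot give a p below 0.1, so these ratios are a description with no test.

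Gpnmb was at 9.97%, 12.9% and 2.67% of Csf1r in control and at 35.5%, 34.8% and 33.4% in cuprizone, so the 3 cuprizone libraries had nearly equal ratios while their Csf1r levels ran from 369 to 675 CPM. Lgals3 was at 7.76%, 5.56% and 3.38% in control and 12.8%, 16.5% and 21.0% in cuprizone, and Clec7a at 2.73% to 8.56% against 9.21% to 15.0%. Igf1 went with them (0.961% to 1.98% against 2.41% to 3.79%), so that 4 of the 16 activated genes had higher ratios without overlap. Of the 17 other homeostatic genes, Cd68 (12.4% to 20.6% against 26.7% to 40.7%) and Ptprc (1.52% to 2.68% against 3.51% to 3.86%) had higher ratios, and P2ry12, P2ry13, Tmem119 and Siglech lower ones. The count of 4 lower of 17 is near the share of all genes with lower ratios, 20.6%, so it is not a result about these genes as a group. Csf1 also had a lower ratio (30.3%, 56.3% and 42.0% against 29.5%, 27.7% and 14.9%). Lgals3bp, the gene that passed the test on CPM, overlapped on this ratio (20.3% to 32.3% against 22.9% to 37.8%). The counts of higher ratios depended on single libraries. They were 11 homeostatic and 4 activated genes without control replicate 24, where 2.53% of all genes had higher ratios. They were 8 and 11 without cuprizone replicate 30 (2.63% of all genes) and 2 and 6 without control replicate 26 (2.87%). The count of lower homeostatic ratios was 4 with any library left out, while the share of all genes with lower ratios ran from 20.9% to 68.3%, the highest without control replicate 24.

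**Figure D4:**
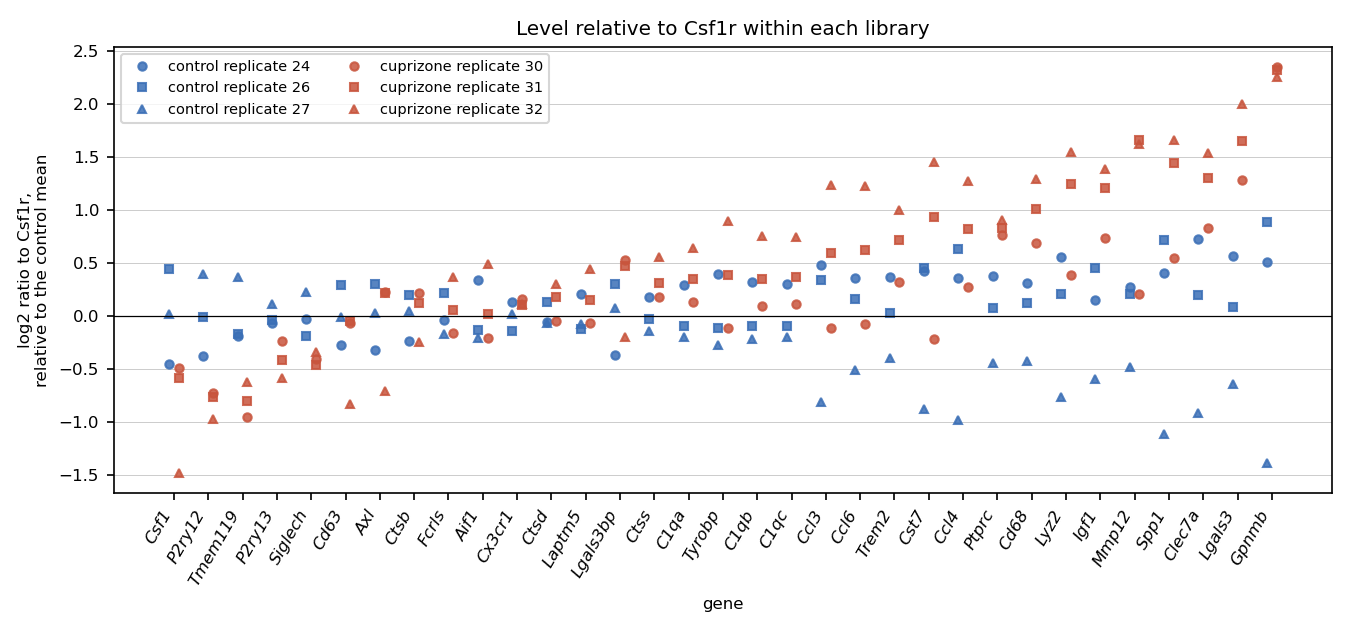
Log2 ratio of each of the other 33 genes to Csf1r within each library, relative to the mean of the controls (y axis), with genes ordered by the mean of the cuprizone libraries, controls in blue and cuprizone in red. Tmem119, P2ry12, P2ry13, Siglech and Csf1 have all red points below all blue points, and Gpnmb, Lgals3, Clec7a, Igf1, Cd68 and Ptprc have all red points above.

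With C1qa in place of Csf1r, where 0.706% of all genes had higher and 15.7% lower ratios without overlap, P2ry12, Tmem119 and Siglech again had lower ratios, and Aif1 and Laptm5 joined them. P2ry13 overlapped on that scale (7.31% to 11.6% in control against 3.999% to 7.31% in cuprizone). Gpnmb, Lgals3, Clec7a, Igf1, Cd68 and Ptprc had higher ratios to C1qa as well, and Trem2 joined them (16.02% to 20.1% against 21.1% to 23.8%). The Gpnmb ratios were less equal on that scale, at 35.8%, 30.2% and 23.6% in cuprizone replicates 30, 31 and 32. Csf1 overlapped.

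Promoters were available from RefSeq (GRCm38.p6) for 28 of the 34 genes, as 32 stretches of 250 bases before a start site, and were searched on both strands for 3 motifs of factors known in macrophages. GAGGAAGT, bound by PU.1, was in 3 of the 32 (9.38%), those of C1qc, Mmp12 and Spp1, and in 2.44% of 32851 promoters in the reference. TGANTCA, a motif of AP-1 searched with any base at N, was in 4 (12.5%), those of Cd68, Igf1, Mmp12 and Trem2, and in 6.75% of all. The matches read TGAGTCA in Cd68 and Mmp12 and TGAATCA in Igf1 and Trem2. The Igf1 window lies wholly in annotated exons. TCACGTGA, bound by MITF and TFE factors, was in 2 (6.25%), those of Ctsd and Siglech, and in 0.785% of all. Each of the 9 stretches with a match holds 1 kind of motif, and a match is a description of letters and not of binding. The promoters of C1qa, Tmem119, Csf1r, Tyrobp, Ctsb and Ccl4 were not used here. The sequences printed are of stretches with no base in an annotated exon: for PU.1 and AP-1 the most abundant such gene in control, with matches in capitals, and Gpnmb, the gene with the largest fold change, which holds none of the 3 motifs in this window.
Spp1, chr5:104434861-104435110, plus strand: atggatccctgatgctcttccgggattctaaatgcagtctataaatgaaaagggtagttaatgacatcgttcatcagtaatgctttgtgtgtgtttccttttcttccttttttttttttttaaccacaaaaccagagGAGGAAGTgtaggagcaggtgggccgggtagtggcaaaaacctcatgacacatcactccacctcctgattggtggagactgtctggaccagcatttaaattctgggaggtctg
Cd68, chr11:69666171-69666420, minus strand: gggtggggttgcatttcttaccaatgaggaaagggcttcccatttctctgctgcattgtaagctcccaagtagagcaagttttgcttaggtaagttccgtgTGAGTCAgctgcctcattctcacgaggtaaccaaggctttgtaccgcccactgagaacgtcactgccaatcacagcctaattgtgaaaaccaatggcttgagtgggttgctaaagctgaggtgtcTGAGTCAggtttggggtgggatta
Gpnmb, chr6:49036268-49036517, plus strand: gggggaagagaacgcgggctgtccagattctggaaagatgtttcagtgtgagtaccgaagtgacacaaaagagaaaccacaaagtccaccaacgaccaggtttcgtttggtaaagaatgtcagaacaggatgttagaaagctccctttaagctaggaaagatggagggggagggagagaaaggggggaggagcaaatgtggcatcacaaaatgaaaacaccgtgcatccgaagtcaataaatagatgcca
The Spp1 match lies 105 bases before the start site, and the Cd68 matches 142 and 17 bases before it. Cd68 and Gpnmb did not overlap between the groups in CPM, and Spp1 did.

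With edgeR, genes of the same pathways outside the 34 were called higher at about the share of all genes, 1 of 60 tested beside 1.87%. With DESeq2 they were called higher at a larger share than all genes, 13 of 60 beside 5.2%. These lists were chosen with earlier results of these data known, so the shares are a description with no test. Of 20 further microglia genes none passed, with 18 above 0 and a median log2 fold change of 0.74. The smallest p-values there were those of Rnase4 (0.79), Entpd1, which splits extracellular ATP (0.69), and Unc93b1, which carries Toll-like receptors to endosomes (0.73), with adjusted p between 0.143 and 0.153. Of 10 transcription factor genes of microglia none passed (median 0.81). Spi1, which encodes PU.1, was at 40.1, 15.7 and 18.1 CPM in control and 25.1, 39.5 and 81.9 CPM in cuprizone (0.99 ± 0.51, adjusted p = 0.294), and Irf8 had 0.95, while Runx1 (1.34, adjusted p = 0.0809) had groups without overlap. None of 11 tested signalling genes downstream of TREM2 and TYROBP passed, all 11 were above 0, and Itgb2, Vav1 and Btk had 1.05, 0.85 and 0.96. Of 19 further genes of activated phagocytes 1 passed, Plin2, which coats lipid droplets, at 23.2, 18.0 and 18.3 CPM in control and 42.1, 35.6 and 47.9 CPM in cuprizone (1.08 ± 0.16, adjusted p = 0.00907). Anxa5 had 0.61 (adjusted p = 0.058) and Vim 1.45 (adjusted p = 0.0765). In cuprizone replicates 30, 31 and 32 Vim was at 882, 668 and 505 CPM and Anxa5 at 197, 221 and 189 CPM. Both were thus lowest in replicate 32, the cuprizone library with the highest summed homeostatic genes, and their cell of origin was not tested. The adjusted p of Plin2 was 0.0573 and 0.0595 without control replicate 26 or 27 (9.22e-07 to 0.0595 over all alternatives), and many cells besides phagocytes make it.

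Of 17 tested receptors and ligands that partner with the members 1 was called higher and 1 lower, beside 7.57% of all genes called in either direction. Tyro3, a sister receptor of AXL that oligodendrocytes express, fell from 266, 303 and 247 CPM to 117, 147 and 148 CPM, with no overlap (log2 fold change -0.99 ± 0.15, adjusted p = 0.0105). Pros1, a ligand of this receptor family, rose from 44.6, 38.6 and 31.3 CPM to 68.2, 62.6 and 59.0 CPM (0.73 ± 0.15, adjusted p = 0.0309). Mertk and Gas6, the family's other receptor and ligand, had 0.10 and -0.06 (adjusted p = 0.78 and 0.87). The adjusted p of Tyro3 was 0.0526 without control replicate 26, and that of Pros1 was 0.0656 to 0.121 with any of control libraries 26 and 27 and cuprizone libraries 30 and 31 removed. Over all alternatives these ran from 1.48e-07 to 0.0526 for Tyro3 and from 9.22e-04 to 0.121 for Pros1. The other 15 did not pass. Among 8 other cathepsins tested Ctsk fell, from 5.72, 5.72 and 7.40 CPM to 0.541, 2.31 and 1.60 CPM (-2.07 ± 0.45, adjusted p = 0.0378). Its adjusted p reached 0.127 without control replicate 27 and was 0.0660 to 0.0982 with any of control libraries 24 and 26 and cuprizone library 32 removed, and with control replicate 24 and cuprizone replicate 32 both removed, with a lowest value of 1.85e-04 under DESeq2. Of 7 chemokines tested beside the members none passed, and Cxcl16 had 1.31 (adjusted p = 0.167).

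Markers of other phagocytes and of blood leukocytes were mostly low. The highest means in their lists were those of Stab1, Ms4a7, Lcn2 and Cd4, named after their values were seen. The 10 border macrophage genes summed to 11.0 to 15.0 CPM in control and 13.9 to 31.7 CPM in cuprizone, and most of that was Stab1, at 8.68 to 11.4 CPM in control and 9.83 to 19.1 CPM in cuprizone. Ms4a7 was at 1.65, 0.567 and 0.874 CPM in control and 1.40, 4.02 and 7.45 CPM in cuprizone (log2 fold change 2.05 ± 0.66, adjusted p = 0.117), with overlapping groups. Mrc1, the mannose receptor of those cells, was at 0.233 to 0.589 CPM in control and 0.299 to 1.17 CPM in cuprizone, and Cd209f was listed at 0 in every library. The 12 monocyte and neutrophil genes summed to at most 4.37 CPM in a library, and most of that was Lcn2. Lcn2, the only gene of this list tested, was at 1.65, 1.25 and 0.466 CPM in control and 4.24, 2.78 and 2.88 CPM in cuprizone. Its groups did not overlap, and its log2 fold change of 1.55 ± 0.43 did not pass edgeR's test (adjusted p = 0.0825). Ccr2 was at 0.118 CPM or less, and Chil3 and Cxcr2 were at 0. Of 12 lymphocyte genes 2 were tested and Cd4 passed (7.60, 7.31 and 10.8 CPM against 22.1, 21.1 and 33.9 CPM, log2 fold change 1.58 ± 0.24, adjusted p = 0.0107), with an adjusted p of 0.0518 without control replicate 26 and of 2.34e-07 to 0.0518 over all alternatives. Cd3e, of the T cell receptor complex, was at 0.257 CPM or less in 5 libraries and 2.83 CPM in cuprizone replicate 32, and Ms4a1 was at 0. Of 11 tested genes of proliferation none passed, and Mki67 was at 1.98 to 5.42 CPM in control and 2.87 to 3.92 CPM in cuprizone (adjusted p = 0.78).

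**Figure D5:**
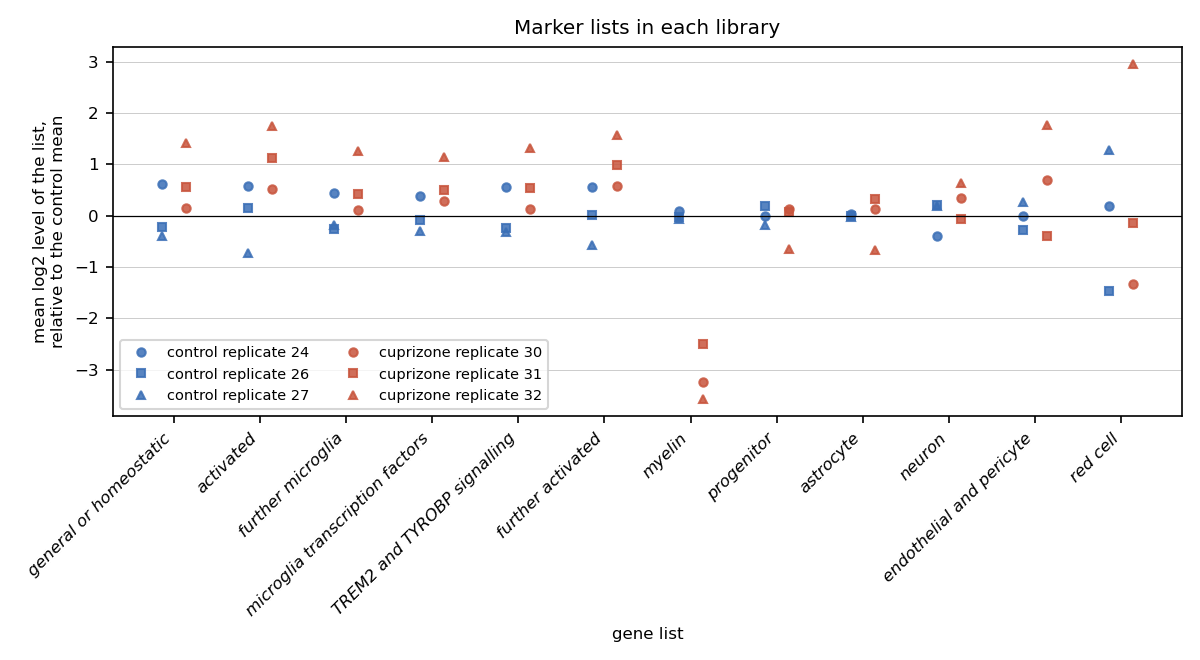
Mean log2 level of 12 gene lists in each library, relative to the mean of the controls (y axis), with controls in blue and cuprizone in red and 1 marker shape per replicate. In each of the 6 lists of microglia and phagocyte genes cuprizone replicate 32 is the highest library (1.42 for the homeostatic list) and control replicate 24 the highest control (0.63), while the myelin list separates the groups (-3.57 to -2.50 in cuprizone).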

How the data were processed

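The authors deposited raw read counts per Ensembl mouse gene for 6 libraries, 3 control and 3 cuprizone, with totals of 18549360 to 22381307. Per the submitters' processing notes, bcl2fastq 2.17 and build mm10 were used. Aligner, counter, annotation and strandedness: not given in the sources used here. Reads from overlapping genes cannot be told apart where strand was ignored. Symbols, positions and exonic lengths came from GENCODE M21 (GRCm38), which matched 37693 of 39017 identifiers. Genes without a match held 0.388% to 0.461% of counts and stayed in the tests.

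In R 4.3.3, edgeR 4.0.16 kept 16569 genes (filterByExpr, minimum count 10, minimum total 15), scaled libraries by TMM and compared the groups by glmQLFit (robust) and glmQLFTest. These p-values are 2-sided, adjusted by Benjamini and Hochberg's method over the 16569 genes, and called under 0.05. Standard errors are the fold change over the square root of F. TPM was computed from the counts and the union of exons. The labels give no batch, and the groups share no replicate number. The procedure was tested on simulated data. The settings varied were the scaling (RLE, upper quartile, TMM without myelin genes and the 20 most abundant genes), the filter (none, or CPM over 1 in 3 samples) and the tool (DESeq2 1.42.0, limma-voom in limma 3.58.1), with each library left out, and control replicate 24 and cuprizone replicate 32 both left out. The members, lists and that last alternative were chosen with earlier results of these data known, and the ratios to Csf1r and C1qa were added after seeing the data. Named genes are all members, the 3 smallest p-values of a list and a fixed set, of which some are not reported here. Mertk, Gas6, Cd3e, Stab1, Ms4a7, Hmgxb3, Fdft1 and genes listed at 0 were named after their values were seen. Counting error adds to the spread of genes at a few CPM.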

Additional observations from a re-analysis of the deposited data

How the results depend on the processing

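The RLE and upper-quartile scalings, TMM without myelin and the most abundant genes, and both other filters left Lgals3bp as the only member called. The number of homeostatic members called higher was 0, with 2 under DESeq2, and 0 in each fit with a single library left out. For activated members it was 1, with 7 under DESeq2, 2 under limma-voom and 0 to 2 with a library left out, the lowest without control replicate 26. With control replicate 24 and cuprizone replicate 32 both left out, 8 homeostatic members (Cx3cr1, C1qa, C1qb, C1qc, Trem2, Ctss, Cd68 and Ptprc) and 2 activated ones (Lgals3 and Lgals3bp) were called, along with 17 further microglia and phagocyte genes and 514 genes higher over the whole table. Those libraries were picked for their microglia gene levels, so these calls describe the remaining 4 libraries and support nothing. The further microglia and phagocyte genes called higher numbered 1, with 13 under DESeq2 and 0 to 2 with a library left out. Over all genes 310 were higher, with 862 under DESeq2, and 945 lower. With a library left out 65 to 464 were higher and 474 to 963 lower: without control replicate 24, 26 or 27 or cuprizone replicate 30 the higher ones numbered 157, 73, 65 and 91 and the lower ones 519, 474, 495 and 480. No member was called lower in any fit. The medians ran from 0.33 to 1.26 for homeostatic and 0.60 to 1.75 for activated members with a library left out, the lowest without cuprizone replicate 32. Fold changes that turned sign were those of P2ry13 (-0.0098 without control replicate 26, and -0.085 to 0.35 with any library left out), Siglech (-0.031 without control replicate 26, and -0.20 to 0.41) and Tmem119 (0.027 without cuprizone replicate 30, the highest of -0.62 to 0.027). Higher ratios to Csf1r without overlap numbered 2 to 11 among homeostatic members with a library left out and 4 to 11 among activated ones. Against C1qa they numbered 3 and 4. Lower ratios numbered 4 among homeostatic members and 1 to 2 among activated ones with a library left out (2 without control replicate 24), and 5 and 0 against C1qa. The cause of these changes was not tested. No paired analysis was possible because the groups share no replicate number.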
